A study of Mus musculus with 8 samples.

Results

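The 10 noncoding RNAs described here are 7 host genes of small nucleolar RNAs (snoRNAs), Gas5, Snhg1, Snhg3, Snhg5, Snhg6, Snhg8 and Snhg12, and 3 long RNAs that stay in the nucleus, Malat1, Neat1 and Kcnq1ot1. They were chosen by name, and all 10 were found among the 12823 rows of the count table. These members, and the gene lists set beside them below, were chosen with earlier results of these data known. RNA-seq was performed on mouse acute myeloid leukemia (AML) driven by the MLL-AF9 fusion, a product of the MLL and AF9 genes that turns bone marrow progenitors into leukemia cells. In both groups the fusion was introduced together with GFP into bone marrow progenitors, the recipients were C57BL/6 mice, and the RNA came from equal numbers of GFP+ cells sorted from bone marrow. New AML (4 libraries) was taken from sublethally irradiated mice that had developed the first leukemia. Aggressive AML (4 libraries) is described as derived from the rest of those cells by 5 rounds of serial transplantation, which according to the methods of the study used recipients that were not irradiated. The methods of the study give young adult mice for all experiments, and for these libraries male mice with an n of 4 per group. The libraries are labelled as biological replicates. How many separate first leukemias they go back to is not given in the sources used here, so that p-values measure the spread between these libraries.

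Total counts lay between 7805544 and 9697777, and the 10 members held 0.119% to 0.185% of them. Levels are given as CPM, that is, counts scaled to a common library size after the trimmed mean of M values (TMM) correction. All 6 myeloid leukemia markers were in the table, of which Kit and Meis1 were called higher and Itgam lower in aggressive AML, and none of the 4 T cell markers was. Some markers of mature cells moved with the group. Of 6 neutrophil markers 5 fell (S100a9, Ltf, Camp and Ngp among them), and their summed level was 272 to 400.0 CPM in new AML and 146 to 195 CPM in aggressive AML. Adgre1 and Csf1r fell among 3 macrophage markers tested, with sums of 201 to 306 CPM and 80.3 to 111 CPM, whereas C1qa and C1qb were not in the table. Hba-a1 was called lower among 4 erythroid markers tested, whose sums were 12.6 to 46.2 CPM and 6.95 to 23.0 CPM. Nkg7 was called higher among 2 NK cell markers tested, with sums of 15.0 to 27.8 CPM and 25.8 to 33.0 CPM. Klrk1, the other of these 2, was not called and went the other way (means of 5.33 and 4.14 CPM). The NK cell markers Ncr1 and Klrb1c were not in the table. Hba-a1 lost its call in 6 and Nkg7 in 5 of the 8 fits that left out 1 library. The 1 B cell marker tested was not called, and the sums were 35.1 to 38.9 CPM and 29.8 to 33.1 CPM. Y-linked genes summed to 2315 to 2574 counts in each new AML library and to 0 counts in each aggressive AML library. The groups compared below thus differ in Y-linked RNA in every library, although they are described as cells of the same origin. By the descriptions they also differ in the irradiation of the recipients. Serial transplantation, irradiation and the difference in Y-linked RNA therefore cannot be told apart. The part of these differences in the results was not tested. As RNA of many cells was pooled, fewer cells of a type and less RNA per cell cannot be told apart.

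snoRNAs are short RNAs that direct the chemical modification and the cleavage of ribosomal RNA in the nucleolus. Most of them are cut out of the introns of a host gene, and for a noncoding host the spliced exons have little coding capacity and are often removed by nonsense-mediated decay, a pathway that destroys messages with an early stop. Several hosts begin with a pyrimidine tract like that of ribosomal protein messages, which ties their translation and decay to growth signals. Malat1 gathers in nuclear speckles, where splicing factors are stored, Neat1 builds paraspeckles, and Kcnq1ot1 is transcribed from the paternal allele and silences neighbouring imprinted genes.

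The snoRNAs below are those carried by the 3 hosts that were higher in aggressive AML, and they show what each host delivers to the nucleolus. Snhg3 carries both copies of U17, an H/ACA snoRNA needed to cut the precursor of ribosomal RNA. Snhg5 carries a pair of C/D snoRNAs of the U50 type, which guide ribose methylation, and Snhg6 carries Snord87. Positions are those of GENCODE on mm10, and every gene shown lies on the minus strand. Capitals mark the ACA box near the end of the H/ACA snoRNAs, and in the C/D snoRNAs the C box (TGATGA) and the D box (CTGA).
Snora73a (Snhg3, chr4:132352775-132352979): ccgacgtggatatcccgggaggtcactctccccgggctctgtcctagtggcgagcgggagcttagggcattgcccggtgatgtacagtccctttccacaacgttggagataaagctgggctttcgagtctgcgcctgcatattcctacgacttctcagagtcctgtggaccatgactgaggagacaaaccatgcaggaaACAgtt
Snora73b (Snhg3, chr4:132352322-132352526): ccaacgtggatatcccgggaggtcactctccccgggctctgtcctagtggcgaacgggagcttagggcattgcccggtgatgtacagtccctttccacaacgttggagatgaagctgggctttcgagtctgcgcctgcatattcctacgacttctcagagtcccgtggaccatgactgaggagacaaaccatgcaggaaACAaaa
Snord50a (Snhg5, chr9:88521529-88521600): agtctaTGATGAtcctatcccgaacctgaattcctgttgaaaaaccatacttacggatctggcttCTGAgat
Snord50b (Snhg5, chr9:88521797-88521868): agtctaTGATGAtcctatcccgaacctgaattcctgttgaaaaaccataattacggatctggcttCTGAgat
Snord87 (Snhg6, chr1:9942463-9942549): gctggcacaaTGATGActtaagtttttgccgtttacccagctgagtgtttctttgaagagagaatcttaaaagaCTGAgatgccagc
The 2 copies of U17 differ at 7 of 205 positions, and the U50 pair differs at 1 of 72. Reads that fall within these near-identical copies could have been split between them by the counting, so the levels of the single copies are uncertain.

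The start sites of the hosts were then read for a pyrimidine tract. The motif searched was a C followed by at least 4 bases that are each C or T, on the strand of the gene, within 20 bases on either side of the annotated start. It was found in 5 of 7 host windows (6 hosts, of which Gas5 has a pair of starts) and in 45.9% of 32851 windows of all genes, so that the match is common. The windows come from RefSeq on GRCm38.p6, the same build as mm10, and the capitals mark the tract. Positions of a tract count the annotated start as 1 and the base before it as -1.
Gas5 (chr1:161035146-161035185, plus strand): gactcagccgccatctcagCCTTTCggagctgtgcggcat
Snhg12 (chr4:132308658-132308697, plus strand): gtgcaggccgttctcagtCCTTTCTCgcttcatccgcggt
Snhg8 (chr3:123508317-123508356, minus strand): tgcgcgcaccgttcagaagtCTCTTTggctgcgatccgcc
Snhg3 (chr4:132353667-132353706, minus strand): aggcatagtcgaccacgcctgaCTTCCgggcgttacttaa
Snhg5 (chr9:88522878-88522917, minus strand): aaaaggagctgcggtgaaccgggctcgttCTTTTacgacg
Snhg1 (chr19:8723467-8723506, plus strand): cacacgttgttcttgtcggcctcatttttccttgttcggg
The tract began at position 1 in Snhg8, at -1 in Gas5 and at -2 in Snhg12. It began at position 3 in Snhg3 and 10 in Snhg5. The other annotated start of Gas5 (chr1:161034581-161034620) had none by this rule, nor had Snhg1, Malat1 and Kcnq1ot1. Snhg6 and Neat1 had no entry.

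To ask whether these RNAs changed between new and aggressive AML, the 12494 rows that passed the filter on low counts were tested with the quasi-likelihood test of edgeR, and p-values were adjusted over all of them by the Benjamini-Hochberg method. All 10 members passed the filter. Snhg3, Snhg5 and Snhg6 were called higher in aggressive AML at an adjusted p under 0.05, 0 were called lower and 7 were not called. At an unadjusted p under 0.05, 5 members were higher and 1 (Neat1) was lower, and neither DESeq2 nor limma called a member lower. Across all tested genes 18.4% were called, 8.15% higher and 10.2% lower. Among the 7 hosts 3 were called and 6 had a fold change above 0, with a median log2 fold change of 0.23, beside a median of 0.00 over all tested genes. Values of the groups did not overlap, with aggressive AML higher, in 4 members (Snhg3, Snhg5, Snhg6 and Snhg12), and the same held for 9.76% of tested genes.

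**Figure D1:**
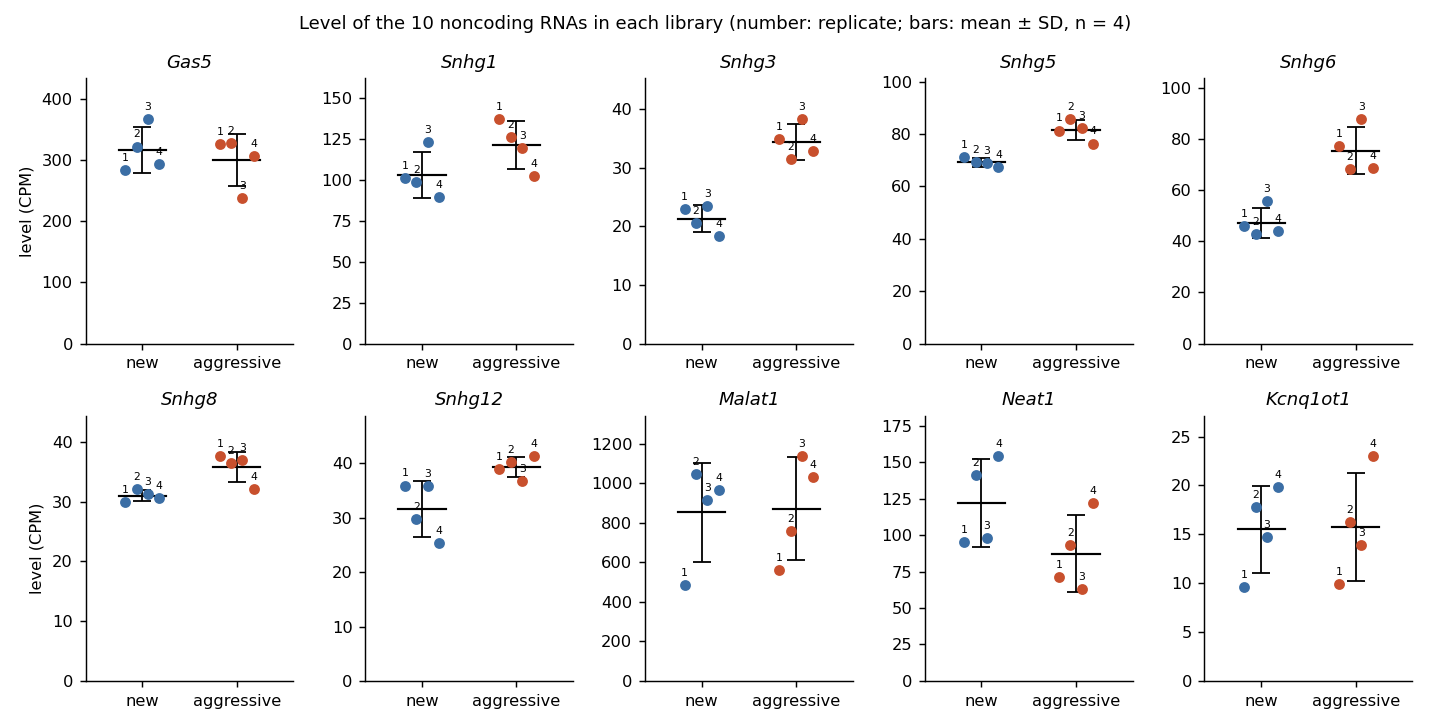
Each panel plots the level of 1 member in CPM on an axis that starts at 0, with a point for each library (labelled by replicate), a line for the mean and bars for the SD of 4 libraries. In Snhg3 the new AML libraries sit between 18.4 and 23.5 CPM and the aggressive AML libraries between 31.5 and 38.4 CPM, whereas Malat1 and Kcnq1ot1 cover about the same range in both groups.

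Snhg3 and Snhg6 had the highest fold changes of the 10. Snhg3 (chr4:132348014-132353686, minus strand, up to 4 exons) measured 22.9, 20.6, 23.5 and 18.4 CPM in new AML replicates 1 to 4 and 34.9, 31.5, 38.4 and 32.9 CPM in aggressive AML replicates 1 to 4. Every aggressive AML library lay above every new AML library. This gave a log2 fold change of 0.69 (SE 0.116, 95% CI 0.44 to 0.93, edgeR adjusted p = 0.000831, n = 4 per group), a fold of 1.61.

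Snhg6 (chr1:9941959-9944118, minus strand) measured 45.9, 43.0, 55.8 and 43.9 CPM in new AML and 77.2, 68.2, 88.0 and 68.6 CPM in aggressive AML. The groups were again apart, and replicate 3 was the highest of each group. Snhg6 had a log2 fold change of 0.68 (SE 0.110, 95% CI 0.44 to 0.91, edgeR adjusted p = 0.000587). Snhg3 and Snhg6 were called higher under all 14 alternative settings, including each fit that left out 1 library.

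The change in Snhg5 (chr9:88521050-88522929, minus strand) was smaller but its libraries were the closest of all members. It measured 71.3, 69.4, 68.9 and 67.2 CPM in new AML (69.2 ± 1.70, SD) and 81.3, 85.8, 82.4 and 76.4 CPM in aggressive AML (81.5 ± 3.89). The groups did not overlap, and their nearest libraries were new AML replicate 1 and aggressive AML replicate 4. Its log2 fold change was 0.23 (SE 0.0766, edgeR adjusted p = 0.0450), and the coefficient of variation within groups was 2.45% and 4.78%. This call stood close to the threshold and was kept in 4 of 14 alternatives. It was lost without any 1 of new AML replicates 1 to 4 or aggressive AML replicates 1 to 3, with fold changes of 0.21 to 0.25 on the log2 scale and adjusted p-values of 0.0555 to 0.117, and was kept without aggressive AML replicate 4.

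The other 4 hosts were not called. Snhg12 (chr4:132308623-132311024, plus strand), host of Snora16a and Snord99 among 4 snoRNAs, measured 35.9, 29.7, 35.8 and 25.3 CPM in new AML and 39.0, 40.2, 36.8 and 41.3 CPM in aggressive AML. The highest new AML library lay just under the lowest aggressive AML library. Its log2 fold change was 0.31 (SE 0.120, 95% CI 0.06 to 0.57, edgeR adjusted p = 0.0830).

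Snhg1 (chr19:8723475-8726443, plus strand), host of Snord22 and 7 further snoRNAs, measured 101, 98.8, 123 and 89.4 CPM in new AML and 137, 126, 119 and 102 CPM in aggressive AML. The groups overlapped, with new AML replicate 3 above 2 of the aggressive libraries. For Snhg1 the log2 fold change was 0.23 (SE 0.107, edgeR adjusted p = 0.143), and without new AML replicate 3 it was 0.33 and was called (adjusted p = 0.0370).

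Snhg8 (chr3:123507552-123508404, minus strand), which holds 1 snoRNA, measured 30.0, 32.1, 31.2 and 30.6 CPM in new AML and 37.6, 36.4, 36.9 and 32.1 CPM in aggressive AML. Only aggressive AML replicate 4 reached down into the range of new AML. Its log2 fold change was 0.21 (SE 0.0983, edgeR adjusted p = 0.160).

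Gas5 (chr1:161034422-161038539, plus strand, up to 12 exons and 9 snoRNAs) is known for RNA that builds up when cells stop growing. It measured 283, 323, 368 and 295 CPM in new AML and 326, 329, 239 and 308 CPM in aggressive AML. The groups overlapped widely, and aggressive AML replicate 3, which was the highest of its group in Snhg3 and Snhg6, was the lowest of all libraries in Gas5. Gas5 had a log2 fold change of -0.08 (SE 0.105, 95% CI -0.30 to 0.15, edgeR adjusted p = 0.646), and it was 0.02 without aggressive AML replicate 3.

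Gas5 took the most counts of the 7 hosts in both groups, a share that also depends on its length. It made up 51.1% ± 2.04 (SD, n = 4) of the summed CPM of the 7 hosts in new AML and 43.5% ± 4.26 in aggressive AML. The sum was 620.5 ± 60.1 CPM in new AML and 688 ± 44.1 CPM in aggressive AML, and the groups overlapped (569 to 706 CPM and 640 to 733 CPM). Without Gas5 the 6 other hosts summed to 307, 294, 338 and 275 CPM in new AML and to 407, 388, 402 and 354 CPM in aggressive AML, so that the groups were apart. These sums contain the members compared above and add no test to them.

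**Figure D2:**
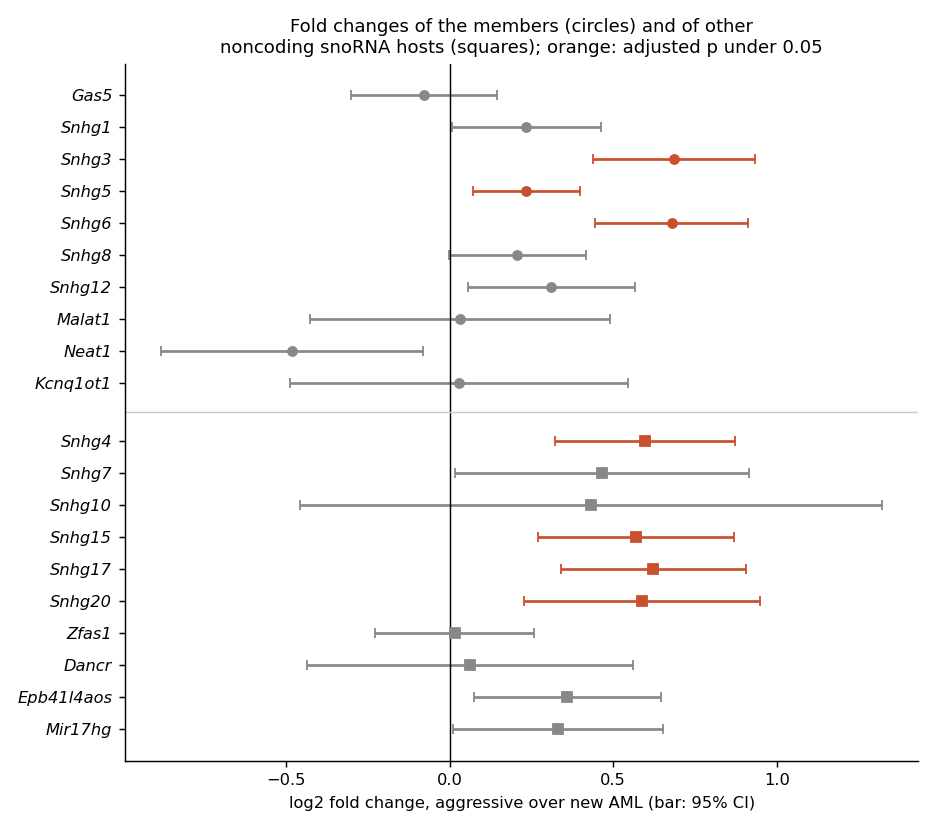
The horizontal axis is the log2 fold change of aggressive over new AML with its 95% CI, for the 10 members (circles) and for 10 further noncoding hosts (squares), and orange marks an adjusted p under 0.05. Mir17hg, among the squares, is a host of microRNAs and not of snoRNAs. Snhg3 (0.69) and Snhg6 (0.68) lie near Snhg17 (0.62) and Snhg4 (0.60), whereas Gas5 (-0.08) and Zfas1 lie near 0 and Neat1 (-0.48) lies to the left.

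The nuclear RNAs varied more between libraries of a group than the hosts did. Malat1 (chr19:5795690-5802672, minus strand) measured 486, 1048, 913 and 963 CPM in new AML and 560.3, 759, 1136 and 1030 CPM in aggressive AML. Replicate 1 was the lowest of each group, and the groups covered about the same range. The log2 fold change was 0.03 (SE 0.216, 95% CI -0.43 to 0.49, edgeR adjusted p = 0.936), an interval that leaves room for a change of the size called in Snhg5. Its sign depended on single libraries. Leaving out replicate 1 of new AML gave -0.16, and leaving out replicate 3 or 4 of aggressive AML gave -0.12 or -0.05, none of them called.

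Neat1 (chr19:5824708-5845478, minus strand) lies 22035 bases from Malat1. It measured 95.2, 141, 97.8 and 154 CPM in new AML and 71.2, 93.1, 63.1 and 122 CPM in aggressive AML. Of the aggressive libraries 3 lay below every new AML library, and replicate 4 lay within their range. The log2 fold change was -0.48 (SE 0.188, 95% CI -0.88 to -0.08) and missed the threshold (edgeR adjusted p = 0.0878). Without aggressive AML replicate 4 it was -0.68 and was called lower (adjusted p = 0.0144).

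Kcnq1ot1 (chr7:143203458-143296549, minus strand, 1 exon) measured 9.65, 17.8, 14.7 and 19.8 CPM in new AML and 9.88, 16.3, 13.9 and 23.0 CPM in aggressive AML. In both groups replicate 1 was the lowest and replicate 4 the highest. The log2 fold change was 0.03 (SE 0.242, 95% CI -0.49 to 0.54, edgeR adjusted p = 0.950). It was -0.15 without new AML replicate 1 and -0.21 without aggressive AML replicate 4, and neither was called.

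The coefficient of variation within a group was 24.6% to 34.9% for the 3 nuclear RNAs and 2.45% to 16.2% for the 7 hosts. The ratio of Neat1 to Malat1 within a library was 0.196, 0.135, 0.107 and 0.160 in new AML and 0.127, 0.123, 0.0556 and 0.118 in aggressive AML. It differed by -0.54 on the log2 scale, with overlapping groups (exact two-sided permutation test, p = 0.2, adjusted p = 0.2 over 4 ratios). The libraries were made with poly-T beads, whereas Malat1 and the long form of Neat1 end without a poly(A) tail. For this reason a list of RNAs that lack such a tail was set beside them.

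Of 6 listed RNAs known to lack a poly(A) tail 0 were called by edgeR, beside 18.4% of all tested genes. Their median log2 fold change was 0.49. DESeq2 and limma also called 0 of the 6, and at an unadjusted p under 0.05 edgeR gave 1 (Rpph1). The list holds Snora73b but not the other snoRNAs in the table, and its median depends on that choice. Those left out were Snora73a (log2 fold change 0.04), Snord22 (0.18), Snora16a (-0.04), Snord99 (-0.0035) and Snord47 (-0.79), none of them called. Rn7s1, a gene of the RNA of the signal recognition particle, measured 10.4, 23.5, 28.4 and 53.4 CPM in new AML and 40.0, 33.2, 52.6 and 60.4 CPM in aggressive AML. Rn7s2, its close copy, measured 7.08, 23.1, 29.7 and 41.0 CPM and then 34.2, 27.1, 39.9 and 47.9 CPM. New AML replicate 1 was the lowest of its group in Rn7s1, Rn7s2, Malat1, Neat1 and Kcnq1ot1, and aggressive AML replicate 4 the highest of its group in Rn7s1, Rn7s2, Neat1 and Kcnq1ot1. The summed level of the 6 RNAs was 28.1 to 109 CPM in new AML and 78.5 to 121 CPM in aggressive AML, and its part in the levels of the nuclear RNAs was not tested. The remaining 4 were Rn7sk, Rpph1, Terc and Snora73b, all with overlapping groups. Rn7sk was also lowest in new AML replicate 1 and highest in aggressive AML replicate 4, Snora73b only the latter, and Terc neither. Rpph1 went the other way in new AML, with 5.95 CPM in replicate 1 as the highest beside 3.69 CPM as the lowest. In aggressive AML replicate 4 it measured 4.89 CPM, and the highest library of that group had 22.9 CPM. Rn7s1 was called higher without new AML replicate 4 (log2 fold change 1.17, adjusted p = 0.0125), and Rpph1 without aggressive AML replicate 3 (1.52, adjusted p = 0.0106) or replicate 4 (1.47, adjusted p = 0.0319).

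**Figure D3:**
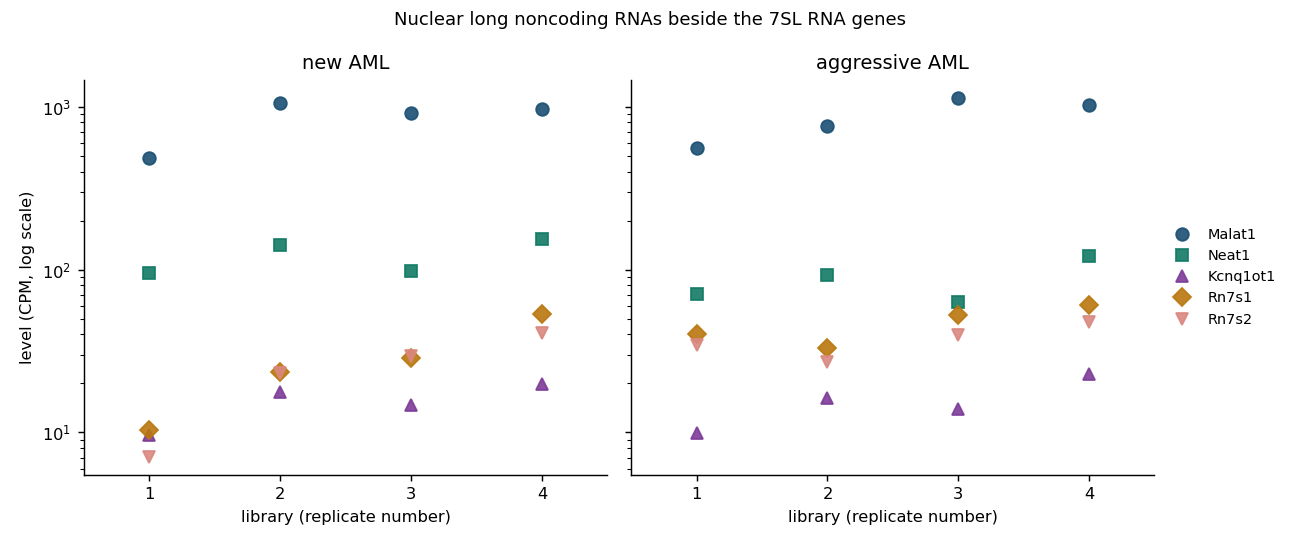
The level in CPM (log scale) of the 3 nuclear RNAs and of Rn7s1 and Rn7s2, 2 genes of 7SL RNA, is plotted for each library, new AML at the left and aggressive AML at the right. New AML replicate 1 is the lowest of its group for all 5 RNAs, with 486 CPM of Malat1 and 10.4 CPM of Rn7s1. The other tested RNAs without a poly(A) tail are not plotted, and not all of them share this order.

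Because the members differ in length, the order of their levels was read from CPM per kb of annotated exons, over all 8 libraries. Malat1 was first with 123 ± 34.0 (SD) CPM per kb, followed by Gas5 with 82.1 ± 10.1 and Snhg6 with 53.5 ± 14.6. Snhg5 (43.5 ± 4.11), Snhg8 (39.1 ± 3.61), Snhg1 (37.7 ± 5.53) and Snhg3 (28.3 ± 7.52) came next, and then Snhg12 with 14.8 ± 2.27. Neat1 reached 5.04 ± 1.54 CPM per kb over its 20.771 kb and Kcnq1ot1 0.168 ± 0.0497 over its 93.092 kb. The length used for Neat1 is that of its long form, which ends without a poly(A) tail. If the counted RNA came from a shorter form, its level per kb would be higher, so that its place in this order is uncertain.

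Over the 8 libraries the range of each member down to Snhg3 overlapped that of the next in this order. Within single groups some of these neighbours were apart. In new AML Gas5 (75.4 to 97.9 CPM per kb) lay above Snhg6 (37.6 to 48.7), Snhg5 (38.8 to 41.2) above Snhg8 (35.1 to 37.6) and Snhg1 (30.1 to 41.3) above Snhg3 (18.7 to 23.9). In aggressive AML Snhg6 (59.5 to 76.8) lay above Snhg5 (44.1 to 49.6), and Snhg5 stood just clear of Snhg8. From Snhg3 down, over all 8 libraries, the ranges were apart, with 18.7 as the lowest value of Snhg3 and 17.2 as the highest of Snhg12. These levels and part of their order rest on the annotated length. With the longest transcript in its place Gas5 came to 121 CPM per kb, near Malat1 with 123. Snhg3 (48.0) then stood above Snhg8 (43.0) and Snhg1 (41.1).

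**Figure D4:**
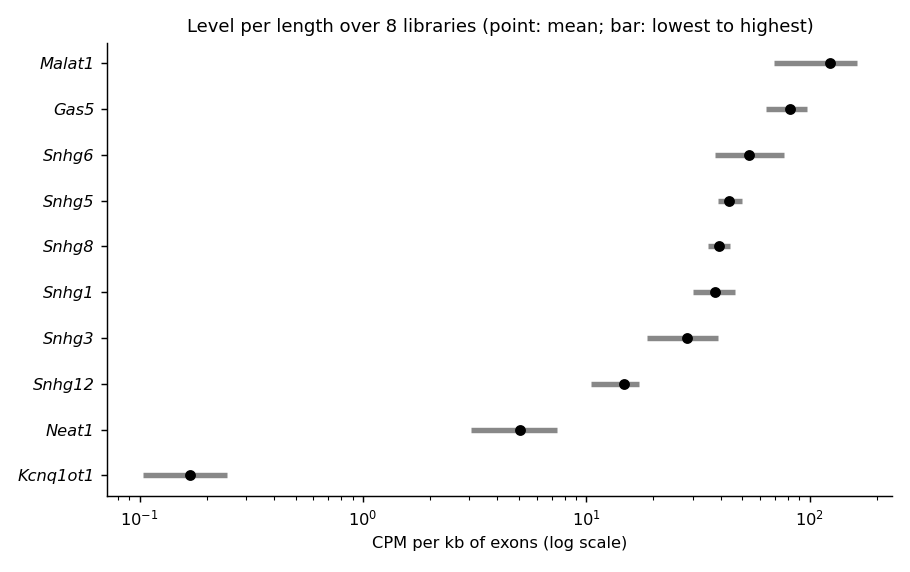
The horizontal axis (log scale) gives the level as CPM per kb of annotated exons, with a point for the mean of 8 libraries and a bar from the lowest to the highest library. The bars of Malat1 (69.6 to 163) and Gas5 (63.5 to 97.9) overlap. Those of Neat1 and Kcnq1ot1 stand apart from all others at their full annotated lengths, and the place of Neat1 depends on that length.

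Several members share their locus with another gene, and since the strand setting of the counting was not stated, reads of overlapping genes cannot be told apart. Rcc1, which loads the nuclear transport factor Ran, lies on the same strand as Snhg3 and overlaps it. It measured 143, 131, 154 and 114 CPM in new AML and 157, 162, 121 and 134 CPM in aggressive AML, with a log2 fold change of 0.08 (SE 0.108, edgeR adjusted p = 0.637). Thus the overlapping groups of Rcc1 stood beside the separated groups of Snhg3.

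Snhg12 lies 36989 bases from Snhg3 on the other strand. The ratio of Snhg3 to Snhg12 within a library was 0.637, 0.692, 0.657 and 0.727 in new AML and 0.895, 0.783, 1.04 and 0.796 in aggressive AML. All aggressive libraries were above all new libraries. The ratio differed by 0.37 on the log2 scale (exact two-sided permutation test over the 70 choices of libraries, p = 0.0286, which is the smallest this design allows, and adjusted p = 0.114 over 4 ratios), and thus missed the threshold after adjustment.

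Mcmdc2, a gene of meiotic recombination on the strand opposite to Snhg6, overlaps only the end of Snhg6 in GENCODE (Mcmdc2 ends at 9942085) and most of Snhg6 in RefSeq (it ends at 9943606). It measured 1.95, 2.62, 2.01 and 2.23 CPM in new AML and 3.73, 3.30, 10.8 and 4.32 CPM in aggressive AML. Every aggressive library was above every new library, and replicate 3 was the highest, as it was for Snhg6. The log2 fold change was 1.32 (SE 0.365, edgeR adjusted p = 0.0207). It was 0.79 (adjusted p = 0.0640) without aggressive AML replicate 3, and the call was also lost without new AML replicate 1 (adjusted p = 0.0584) or replicate 4 (adjusted p = 0.0505).

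Slc3a2, the heavy chain of amino acid transporters, starts next to Snhg1 and runs the other way. It measured 114, 100.1, 114 and 86.9 CPM in new AML and 169, 177, 142 and 108 CPM in aggressive AML. Only aggressive AML replicate 4 fell within the range of new AML. Slc3a2 was called higher, with a log2 fold change of 0.52 (SE 0.135, edgeR adjusted p = 0.0141), and the call was lost without new AML replicate 4 (0.44, adjusted p = 0.0525) or aggressive AML replicate 2 (0.43, adjusted p = 0.0517). The ratio of Snhg1 to Slc3a2 was 0.886 to 1.07 in new AML and 0.709 to 0.949 in aggressive AML, a difference of -0.27 on the log2 scale (exact two-sided permutation test, p = 0.0571, adjusted p = 0.114).

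At the Gas5 locus Zbtb37, a zinc finger gene on the opposite strand, had a log2 fold change of 0.15 (SE 0.159, edgeR adjusted p = 0.550). It was not called, and its groups overlapped. The ratio of Gas5 to Zbtb37 was 25.1 to 30.7 in new AML and 21.1 to 26.3 in aggressive AML, a difference of -0.23 on the log2 scale (exact two-sided permutation test, p = 0.114, adjusted p = 0.152).

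The table also lists 6 snoRNAs that lie within the hosts. Snora73a measured 1.78 to 3.57 CPM in new AML and 1.04 to 3.19 CPM in aggressive AML, and Snora73b 1.90 to 3.45 CPM and 2.20 to 2.84 CPM. Both showed overlapping groups, with log2 fold changes of 0.04 (SE 0.357, edgeR adjusted p = 0.957) and -0.12 (SE 0.285, adjusted p = 0.813), beside 0.69 for their host Snhg3. The differences between host and snoRNA were not tested. In both groups all values of these snoRNAs were under 4 CPM. The 95% interval of Snora73a (-0.72 to 0.80) held the fold change of Snhg3. That of Snora73b (-0.72 to 0.49) did not, but it overlapped the interval of Snhg3 (0.44 to 0.93). As reads could have been split between these near-identical copies, no change of a single copy is excluded. Snord22 of Snhg1 had a log2 fold change of 0.18, Snora16a and Snord99 of Snhg12 of -0.04 and -0.0035, and Snord47 of Gas5 of -0.79 (SE 0.555), and none of these 4 was called. Size selection of such short RNAs was not stated, and reads of the unspliced host fall on the same bases. As the libraries were made with poly-T beads and snoRNAs lack a poly(A) tail, these rows may not measure the snoRNAs themselves.

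Other noncoding hosts were examined next. Of 20 listed, 10 were in the table and were tested. These 10 include Mir17hg, a host of microRNAs and not of snoRNAs (log2 fold change 0.33, edgeR adjusted p = 0.142). It is counted in the share, the signs and the median given here. Snhg4, Snhg15, Snhg17 and Snhg20 rose and 6 were not called, a share called of 40% beside 18.4% of all tested genes. All 10 had a fold change above 0, beside 6257 of the 12494 tested genes. Their median log2 fold change was 0.45, beside 0.23 for the 7 member hosts and 0.00 for all tested genes. Snhg17 measured 29.9, 29.7, 34.0 and 26.5 CPM in new AML and 44.0, 52.1, 53.6 and 35.5 CPM in aggressive AML. The groups were apart, with a log2 fold change of 0.62 (SE 0.132, edgeR adjusted p = 0.00422). Snhg4 measured 14.3, 15.0, 12.2 and 13.9 CPM and then 20.4, 20.3, 19.3 and 23.7 CPM, also apart (0.60, SE 0.129, adjusted p = 0.00479). The groups of Snhg15 (0.57, SE 0.141, adjusted p = 0.0113) and Snhg20 (0.59, SE 0.170, adjusted p = 0.0252) overlapped. The call of Snhg20 was lost without new AML replicate 1, 2 or 3 or aggressive AML replicate 1 or 3 (0.48 to 0.59, adjusted p = 0.0575 to 0.0699). Zfas1, a host with 4 new AML libraries between 50.4 and 67.0 CPM, measured 49.0 to 68.2 CPM in aggressive AML.

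Protein-coding hosts carry snoRNAs in genes of ribosomes, translation and nucleolar assembly. Of 34 tested, 11 rose, 1 fell and 22 were not called, with 32 fold changes above 0 and a median of 0.20. In all, 35.3% were called, beside 18.4% of all tested genes. Nop58, a core protein of C/D snoRNPs, rose by 0.32 on the log2 scale (SE 0.0878, edgeR adjusted p = 0.0188) and Eef1b2, an exchange factor of translation elongation, by 0.31 (SE 0.0714, adjusted p = 0.00682). The 1 host that fell was Hspa8, a chaperone and not a ribosomal or nucleolar protein, from 1185 ± 146 to 740 ± 162 CPM (log2 fold change -0.68, SE 0.127, adjusted p = 0.00174). Without new AML replicate 2 or aggressive AML replicate 2 the number of hosts called was 4, and it was 5 to 6 without new AML replicate 1 or 4 or aggressive AML replicate 1. The call of Nop58 was lost without new AML replicate 2 or 4 or aggressive AML replicate 2 (adjusted p = 0.0529 to 0.0601).

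Of 85 cytosolic ribosomal protein genes tested, some of which also stand among the hosts, 21 rose and 64 were not called. Their median was 0.20, and 81 fold changes were above 0. Calls were made in 24.7% of them, beside 18.4% of all tested genes. Rpl36 rose by 0.60 (SE 0.151, edgeR adjusted p = 0.0124), Rpl27 by 0.44 (SE 0.131, adjusted p = 0.0288) and Rpl32l by 0.40 (SE 0.116, adjusted p = 0.0253). The count fell to 8 without new AML replicate 2, to 10 without replicate 1, to 9 without replicate 4, and to 10 and 11 without aggressive AML replicates 1 and 3. Rpl36 kept its call in all 8 fits that left out 1 library, Rpl27 in 3 and Rpl32l in 4. Levels in this list differed widely, with new AML means from 4.52 CPM for Rpl38 to 2853 CPM for Rpl4. Rpl36 (40.7 CPM), Rpl27 (28.8 CPM) and Rpl32l (130 CPM) were far below the latter. Whether reads of these genes were split with similar copies elsewhere was not tested. Among 21 core and assembly proteins of snoRNPs, which hold the snoRNA and carry out the modification, Nop58 rose and 20 were not called (4.76% called, median 0.13). The count was 0 without new AML replicate 2, new AML replicate 4 or aggressive AML replicate 2, 3 without aggressive AML replicate 4, 4 without new AML replicate 3 and 5 without aggressive AML replicate 3.

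Among 20 factors of nonsense-mediated decay, the pathway that removes spliced host RNA, 2 rose, 1 fell and 17 were not called. The median was 0.07, and 15% were called, beside 18.4% of all tested genes. Smg5, which acts in the dephosphorylation of the helicase Upf1, rose from 156 ± 5.34 to 189 ± 5.99 CPM (log2 fold change 0.28, SE 0.0679, edgeR adjusted p = 0.0107). Etf1, the translation release factor, rose by 0.29 (SE 0.0723, adjusted p = 0.0127), a call that was lost without new AML replicate 2 (adjusted p = 0.0524). Pnrc2, an adaptor of decapping, fell from 125 ± 11.4 to 102 ± 5.17 CPM (log2 fold change -0.30, SE 0.0833, adjusted p = 0.0220), which was lost without new AML replicate 2 or 4 or aggressive AML replicate 1 or 2 (adjusted p = 0.0567 to 0.0770). The number called was 1 without new AML replicate 2 and 5 without aggressive AML replicate 4.

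The proteins that meet Neat1 and Malat1 were read in the same way. Of 22 paraspeckle and nuclear speckle proteins 4 rose and 18 were not called, with a median of 0.03. The share called, 18.2%, was about that of all tested genes (18.4%). Pspc1, a paraspeckle protein, rose from 47.8 ± 2.64 to 63.3 ± 2.91 CPM (log2 fold change 0.40, SE 0.0858, edgeR adjusted p = 0.00421). Hnrnpk, which binds RNA in paraspeckles, rose by 0.38 (SE 0.0673, adjusted p = 0.00127), and the speckle splicing factor Srsf5 rose by 0.43 (SE 0.0864, adjusted p = 0.00288). In these 3 genes the groups did not overlap, beside the Neat1 fold change of -0.48 that missed the threshold.

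Around Kcnq1ot1 7 genes of the imprinted domain were tested. Cd81, a tetraspanin of the cell surface, rose by 0.34 (SE 0.0750, edgeR adjusted p = 0.00590), Osbpl5, a lipid transfer protein, fell by 0.51 on the log2 scale (SE 0.122, adjusted p = 0.00883), and the other 5 were not called. The median of the 7 was 0.09, beside 0.03 for Kcnq1ot1 itself. Of these few genes 28.6% were called, beside 18.4% of all tested genes.

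Of 18 other long noncoding RNAs tested 3 rose, 1 fell and 14 were not called, with a median of 0.04. This is 22.2% called, beside 18.4% of all tested genes. Pvt1, a neighbour of Myc, rose from 5.26 ± 0.963 to 8.67 ± 0.548 CPM (log2 fold change 0.72, SE 0.192, edgeR adjusted p = 0.0173). Gm14005 rose by 0.56 (SE 0.158, adjusted p = 0.0237) and 1810026B05Rik by 0.28 (SE 0.0841, adjusted p = 0.0294). The 1 that fell was Xist, the RNA of the inactive X chromosome, which was named after its values were seen. It had 24, 18, 25 and 46 counts in new AML and 2, 6, 2 and 4 counts in aggressive AML. It passed the filter on low counts only through the new AML libraries and so had to differ, and its call is given as a description. It was not tested in the fits without a new AML library. The number called was 0 without new AML replicate 2, 1 without new AML replicate 4, and 2 without new AML replicate 3 or aggressive AML replicate 3. Pvt1 lost its call without new AML replicate 2 or 4 (adjusted p = 0.0642 and 0.0554), Gm14005 in 3 and 1810026B05Rik in 6 of the 8 fits that left out a library.

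**Figure D5:**
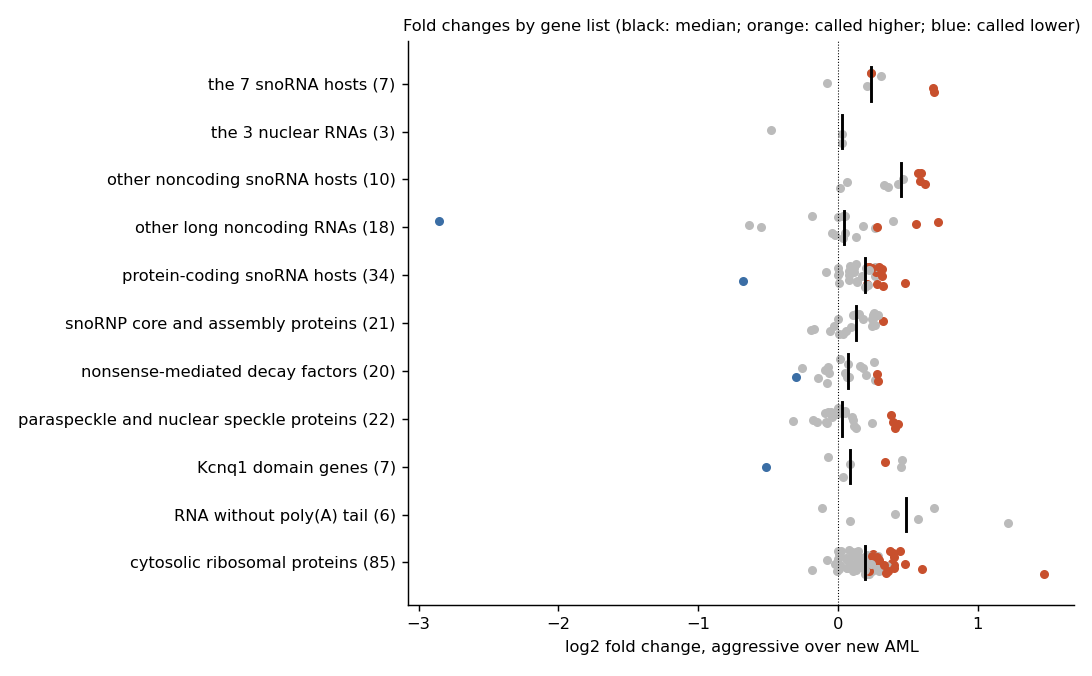
Each point is the log2 fold change of 1 tested gene (horizontal axis) in the list named at the left with its number of genes, and the black bar is the median. The medians of the 7 hosts (0.23), other noncoding hosts (0.45), protein-coding hosts (0.20) and ribosomal proteins (0.20) lie right of 0, and those of the 3 nuclear RNAs (0.03) and other long noncoding RNAs (0.04) lie near it.

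The genes whose centred profile of log2(CPM + 1) over the 8 libraries lay nearest to the mean profile of the 7 hosts were Hspa9 (root mean square difference 0.0326), Hbs1l (0.0366), Pkm (0.0386) and Gm12070 (0.0400). Those nearest to Malat1 were Gm38485 (0.134), BC025920 (0.160), Atxn7l1os2 (0.181) and LOC108167814 (0.189). For Neat1 they were Zfp950 (0.0904), LOC108169177 (0.143), Csad (0.144) and Itpripl2 (0.145). A mean of 7 profiles varies less than a single profile, so that these distances are not compared between the hosts and Malat1 or Neat1.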

How the data were processed

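The authors purified RNA with poly-T beads, sequenced both ends and aligned the reads to mm10 with HISAT2. Per the labels and methods they counted reads per gene with Rsubread 2.12.3 and used edgeR 3.40.2 for CPM, leaving out genes under 1 CPM. Annotation and strand setting are not given in the sources used here. Although its name says CPM, the deposited file holds whole-number counts and was read as raw counts. The filter asked for 1 CPM or more in 4 or more of 8 libraries, which kept 12494 rows and left out 329. Counts were fitted with edgeR 4.0.16 (TMM, quasi-likelihood F test, group alone, R 4.3.3), and calls were made under 0.05 after Benjamini-Hochberg adjustment. The script was tested on simulated data. A single count was worth 0.103 to 0.130 CPM, and replicate pairs differed beyond sampling noise (chi-square per degree of freedom 4.06 to 11.0). DESeq2 1.42.0, limma 3.58.1 on log2(CPM + 1), RLE factors, library totals, no filter, a replicate block and leaving out each library were alternatives. The members and lists were chosen with earlier results of these data known. Named list genes are the 4 called with the largest fold change and a mean of at least 5 CPM, neighbours overlap a member or start within 5 kb, and the 4 nearest profiles are given. Some genes that this rule selects are not reported here. Ratios were tested by exact permutation. Of the mitochondrial genome 0 genes were in the table. Sequences and positions are from GENCODE and RefSeq (GRCm38.p6).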

Additional observations from a re-analysis of the deposited data

Results flagged for a closer look

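Of 126 groups of 4 libraries that were examined, 5 held a library that stood apart from the rest by the Dixon criterion at 95%, and chance gives about 1 in 20. For the ratio of Neat1 to Malat1 it was aggressive AML replicate 3, with 0.0556 beside 0.118 to 0.127 in the others. For Mcmdc2, which overlaps Snhg6, it was the same library with 10.8 CPM beside 3.30 to 4.32 CPM. Rn7sk measured 6.35 CPM in new AML replicate 4 and 1.64 to 2.34 CPM in the rest. Rpl36 measured 32.8 CPM in new AML replicate 4 and 42.8 to 43.6 CPM in the others, and Kit measured 139 CPM in aggressive AML replicate 2 and 173 to 175 CPM in the rest.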

How the results depend on the processing

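Snhg3 and Snhg6 were called higher under all 14 alternatives, and Snhg5 under 4, being lost with library totals alone (adjusted p = 0.0507) and with limma (adjusted p = 0.0520). Over the fits that left out 1 library, the number of members called lower was 0 to 1, all genes called higher 633 to 1047 and lower 833 to 1283. The number called was 4 to 17 for protein-coding hosts, 0 to 4 for other long noncoding RNAs, 0 to 5 for snoRNP proteins, 1 to 5 for decay factors and 8 to 26 for ribosomal proteins. Medians were 0.42 to 0.55 for other noncoding hosts, 0.030 to 0.078 for decay factors and 0.0036 to 0.065 for speckle proteins. Log2 fold changes that turned sign ranged from -0.13 to 0.021 for Gas5, -0.16 to 0.20 for Malat1, -0.21 to 0.20 for Kcnq1ot1, -0.25 to 0.033 for Snora73b, -0.11 to 0.28 for Snora73a, -0.28 to 0.15 for Snora16a, -0.23 to 0.21 for Snord99 and -0.13 to 0.69 for Rn7sk, and none of them was called.

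With limma the median of other noncoding hosts was 0.36, and the fold changes were -2.57e-04 for Kcnq1ot1 and -0.012 for Snora73a. The fold change of Snord99 was 0.0019 with RLE factors, 1.94e-04 without a filter, 0.0032 with DESeq2 and 0.0061 with limma. DESeq2 called 3 snoRNP proteins. With the longest transcript as the length, the level in CPM per kb was 121 for Gas5, 48.0 for Snhg3, 61.7 for Snhg5, 75.2 for Snhg6, 43.0 for Snhg8 and 23.1 for Snhg12. The cause of these shifts was not tested.

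Over all genes the replicate numbers gave no clear pairing of the libraries. Kcnq1ot1 had the same order of replicate numbers in both groups, and whether the numbers mark a shared condition was not tested. Of 4 same-numbered pairs 1 had a correlation of deviations over 0.1 (-0.07 to 0.20), and 2 of 4 new AML libraries correlated best with their own number. With the number as a replicate block, 2367 genes were called in place of 2296. The 1 member then called lower was Neat1 (-0.50, adjusted p = 0.00159), Snhg5 was not called (adjusted p = 0.0614), 3 snoRNP proteins and Rn7s1 (adjusted p = 0.0191) were called, Rpl27 was not (adjusted p = 0.0506), and Snord99 had a fold change of 0.0083.

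The 6 snoRNAs in the table stayed under 6 CPM in every library, and what keeps their level low was not tested.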
